A study of Homo sapiens with 2 samples.

Results

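The mitochondrial SLC25 carriers were taken as all genes whose symbol in the platform's probe annotation begins with SLC25A and a number, which gave 50 genes read by 102 probe sets, of 19775 genes and 54675 probe sets on the array. Of these, 45 are carrier genes (96 probe sets), and the other 5 are antisense RNAs or a pseudogene named after a carrier (6 probe sets). The rule itself reads only the gene symbol. They were read in KG1, an established line from human acute myeloid leukaemia that resembles early blood progenitors. The cells had received, by electroporation, 1.98 µg of siRNA directed at T-bet (siRNA-Tbet) or the same amount of a control siRNA (siRNAc), and were rested for 5 h and then given interleukin-18 at 10 ng/ml for 12 h. Each group is 1 Affymetrix array, and both groups received interleukin-18, so neither shows unstimulated or untransfected cells. The sequences of both siRNAs, and whether each was 1 duplex or a pool, are not given in the sources used here.

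SLC25 proteins are the family of carriers that move small molecules across the inner mitochondrial membrane. They exchange ADP for ATP, bring in phosphate, and pass acids of the citric acid cycle, amino acids, nucleotides, cofactors and iron between the cytosol and the matrix. In blood progenitors and leukaemia cells they link glycolysis, respiration and the making of haem, nucleotides and amino acids. They are made in the cytosol and are inserted by an import route of their own, through the TOM pore, the small TIM chaperones and the TIM22 complex.

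T-bet, encoded by TBX21, read 1839 in siRNA-Tbet cells and 3581 in siRNAc cells, in arbitrary MAS5 units, so the siRNA-Tbet array held the lower level of the targeted transcript but had not lost it. IFNG, the interferon-γ gene and a known target of T-bet, had 31243 with siRNA-Tbet and 35136 with siRNAc (1.12-fold lower). The progenitor antigen CD34 read 17130 with siRNA-Tbet and 15839 with siRNAc, and PTPRC, the pan-leukocyte antigen CD45, had 21790 with siRNA-Tbet and 22778 with siRNAc. Of the line's other measured markers, the progenitor transcription factor MYB differed most, with 26265 in siRNA-Tbet cells and 20627 in siRNAc cells (log2 ratio 0.35), beside HLA-DRA at a log2 ratio of 0.16 and ANPEP, the myeloid antigen CD13, at -0.14. Signals under 146.396, the median of the siRNAc array, were treated as a floor on both arrays. Of 9 markers of other cell types that could be read, 3 passed the floor on at least 1 array: the B cell marker MS4A1 (88.3 with siRNA-Tbet and 183 with siRNAc), the T cell marker CD3E (249.99 with siRNA-Tbet and 210.65 with siRNAc) and the globin gene HBB (227 with siRNA-Tbet and 152 with siRNAc), all dim. The epithelial marker EPCAM was at 10.1 with siRNA-Tbet and 8.76 with siRNAc, and the monocyte marker CD14 at 4.54 with siRNA-Tbet and 6.34 with siRNAc. SPN, a leukocyte sialoglycoprotein listed as a marker of this line, was also under the floor, at 37.1 with siRNA-Tbet and 49.3 with siRNAc. With 1 array per group no value has a replicate error, no p-value was computed, and differences are described by their size. The arrays read RNA of whole cultures, in which fewer cells making a transcript and less of it per cell cannot be told apart. The siRNA also cannot be told apart from any other difference between these 2 cultures or arrays.

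The carrier transcripts had closely similar signals with siRNA-Tbet and siRNAc. A gene's main probe set was the one with the highest mean log2 signal. Probe sets with the suffix _x_at, which can cross-hybridise, were used only where the gene had no other, and those with other suffixes, such as _s_at, were kept. A gene was called measured where its main probe set lay above the floor on at least 1 array, and 36 of the 45 carriers were. Of the 36 measured carriers, 0 were at least 1.5-fold higher and 0 at least 1.5-fold lower with siRNA-Tbet. Among all 12155 measured genes, 1.99% were higher and 2.89% lower by that size. In 36 genes a count of 0 is near those shares. Most of the measured carriers, 30 of 36, differed by less than 1.2-fold. Their log2 ratios, siRNA-Tbet over siRNAc, lay between -0.50 and 0.27 with a median of -0.05, beside a median of -0.02 over all measured genes. Without regard to sign, the median log2 difference was 0.10 in carriers and 0.14 in all measured genes. These comparisons were not matched for signal, and ratios scatter less at higher signals. Of the 36 carriers, 26 had a mean signal over 1000. With the floor at the 75th percentile, 0.915% of all 7544 genes passed 1.5-fold in either direction, beside 0 of 28 carriers. The ratio was above 0 in 14 carriers and below 0 in 22, where 46.5% of all measured genes lay above 0. That lean towards lower signals depended on the probe set read. With the median over each gene's measured probe sets, 19 of the 36 carriers were above 0, beside 47.3% of all genes. Only 19 carriers have a second measured probe set. With it, 12 of these 19 were above 0 and the median was 0.11. Of all 6140 genes with a second measured probe set, 50.3% lay above 0, with a median of 0.0019.

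**Figure D1:**
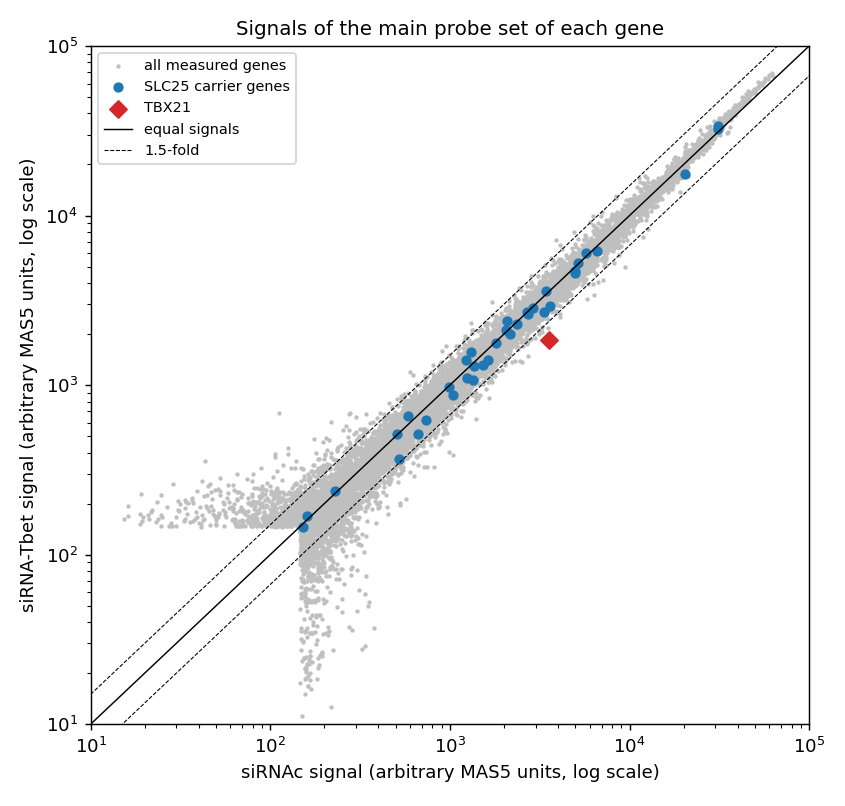
Signal of the main probe set of each gene on the siRNA-Tbet array (vertical) against the siRNAc array (horizontal), both in arbitrary MAS5 units on log scales. Grey points are the 12155 measured genes, blue points the 36 measured SLC25 carriers and the red diamond TBX21, and the dashed lines mark 1.5-fold. All 36 carriers lie between the dashed lines, and TBX21 lies below them.

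**Figure D2:**
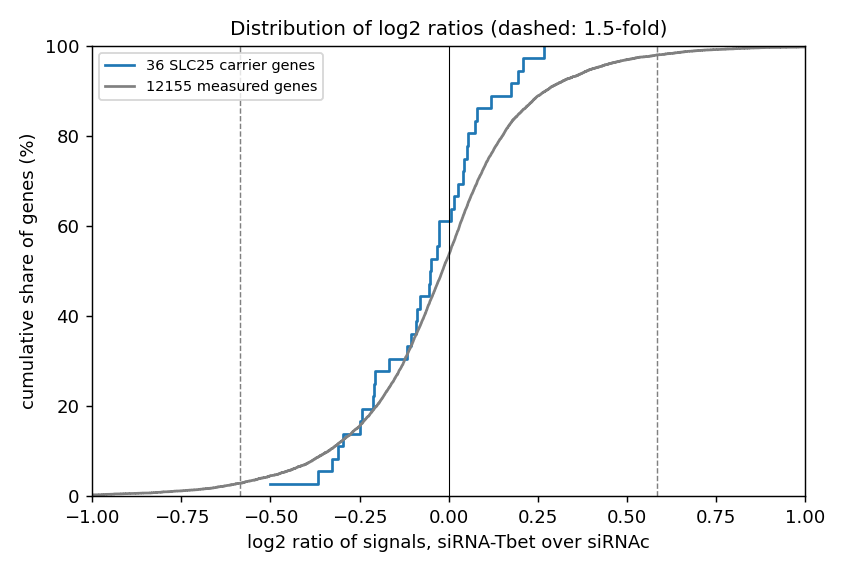
Cumulative share of genes, in percent, by log2 ratio of signals (siRNA-Tbet over siRNAc), for the 36 measured SLC25 carriers (blue) and all 12155 measured genes (grey). The carriers' curve runs from -0.50 to 0.27, inside the dashed 1.5-fold lines, and its median of -0.05 lies near the -0.02 of all genes.

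A yardstick for technical noise is the spread between probe sets that read the same gene, which was 0.40 on the log2 scale at a median signal of 231, and 0.12 at a median signal of 11337. It is a single standard deviation, taken from the brightest measured probe sets of each gene on these same arrays, so some genes pass it through differences between probe sets alone. It leaves out variation between cultures and arrays. By this measure 9 of 36 carriers differed by more than the spread at their signal, where 30% of all measured genes did. These were SLC25A1 and SLC25A26 on the higher side, and SLC25A11, SLC25A17, SLC25A24, SLC25A25, SLC25A32, SLC25A37 and SLC25A51 on the lower side. On the lower side, SLC25A11, SLC25A37 and SLC25A51 also had other probe sets above 0. At a size of 1.2-fold, 1 carrier was higher (SLC25A26) and 5 were lower (SLC25A11, SLC25A17, SLC25A24, SLC25A25 and SLC25A51), against 10.4% and 14.8% of all measured genes. Set among the genes of its own signal decile, 1 carrier (SLC25A32) had a ratio outside the central 90%, a range that leaves out 10% of all genes by construction.

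The ADP/ATP carriers, which export the ATP made by oxidative phosphorylation, had nearly equal signals. SLC25A5, the isoform of dividing cells, had 32165 with siRNA-Tbet and 30985 with siRNAc on its only probe set, a log2 ratio of 0.05. SLC25A4, the isoform of heart and muscle, had 1400 with siRNA-Tbet and 1224 with siRNAc, a log2 ratio of 0.19 that is smaller than the probe set spread of 0.22 at that signal. A second SLC25A4 probe set was under the floor on both arrays (96.2 with siRNA-Tbet and 23.8 with siRNAc), as was the probe set of SLC25A31, the isoform of the testis (3.56 with siRNA-Tbet and 22.97 with siRNAc). RefSeq lists 9 pseudogenes of SLC25A5, and whether the probe set also reads them was not tested. Signals of different probe sets depend on their probes and are not compared here as transcript levels.

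SLC25A3, which brings in the phosphate that ATP synthase uses, had 33899 with siRNA-Tbet and 31206 with siRNAc, a log2 ratio of 0.12. Its dimmer second probe set went the other way, at 351 with siRNA-Tbet and 468 with siRNAc (log2 ratio -0.41). RefSeq lists 3 pseudogenes of SLC25A3, and whether these probe sets also read them was not tested. The ATP-Mg/phosphate carriers, which set the adenine nucleotide pool of the matrix in response to calcium, did not share a direction. SLC25A24 had 2713 with siRNA-Tbet and 3361 with siRNAc (1.24-fold lower), and a second probe set under the floor on both arrays. SLC25A25 had 516 with siRNA-Tbet and 666 with siRNAc, or 1.29-fold lower, on its only probe set. SLC25A23 was 1.13-fold higher on its main probe set (657 with siRNA-Tbet and 582 with siRNAc) and had a log2 ratio of -0.19 on the other (195 with siRNA-Tbet and 222 with siRNAc). The SLC25A41 probe set was under the floor on both arrays.

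Among the carriers of di- and tricarboxylates, SLC25A1, the citrate exporter that feeds fatty acid synthesis, had 2397 with siRNA-Tbet and 2074 with siRNAc, a log2 ratio of 0.21 beside a probe set spread of 0.18. SLC25A10, which exchanges malate and succinate for phosphate, had 623 with siRNA-Tbet and 741 with siRNAc (log2 ratio -0.25, under the spread of 0.30). SLC25A11, the oxoglutarate carrier of the malate-aspartate shuttle, had 1070 with siRNA-Tbet and 1343 with siRNAc on its main probe set, or 1.26-fold lower. Its second probe set gave the opposite order, at 1279 with siRNA-Tbet and 1082 with siRNAc (log2 ratio 0.24). SLC25A21, the oxodicarboxylate carrier, had 20.2 with siRNA-Tbet and 0.739 with siRNAc, both under the floor, so its ratio was not read.

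Of the carriers of amino acids and acylcarnitine, 8 of 10 were measured, with log2 ratios from -0.21 to 0.07, of which 2 were above 0 and 6 below. The aspartate/glutamate carriers complete the malate-aspartate shuttle, which passes reducing equivalents into the matrix. Of these, SLC25A12 was lower on both its probe sets, at 1999 with siRNA-Tbet and 2170 with siRNAc, and at 934 with siRNA-Tbet and 1113 with siRNAc (log2 ratios -0.12 and -0.25). SLC25A13 had 4591 with siRNA-Tbet and 4940 with siRNAc on its main probe set (log2 ratio -0.11), and its 2 other probe sets had 1632 with siRNA-Tbet and 1508 with siRNAc, and 247 with siRNA-Tbet and 209 with siRNAc (log2 ratios 0.11 and 0.24). The glutamate carrier SLC25A22 had 1316 with siRNA-Tbet and 1522 with siRNAc, a log2 ratio of -0.21 that is under the spread of 0.22.

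The remaining amino acid carriers differed little at their main probe sets. SLC25A15, the ornithine/citrulline carrier of the urea cycle, had 2102 with siRNA-Tbet and 2046 with siRNAc, and 257 with siRNA-Tbet and 248 with siRNAc on its second probe set. SLC25A20, which carries acylcarnitines to fatty acid oxidation, had 2279 with siRNA-Tbet and 2364 with siRNAc. SLC25A38, which supplies glycine for haem synthesis, had 3587 with siRNA-Tbet and 3408 with siRNAc, and SLC25A44, a carrier of branched-chain amino acids, had 2844 with siRNA-Tbet and 2908 with siRNAc on its main probe set and 1518 with siRNA-Tbet and 1535 with siRNAc on its other. SLC25A29, a carrier of basic amino acids, had 1776 with siRNA-Tbet and 1811 with siRNAc on its main probe set, 540 with siRNA-Tbet and 526 with siRNAc on a dimmer one, and 1509 with siRNA-Tbet and 1081 with siRNAc on another, which was 1.40-fold higher with siRNA-Tbet. The last SLC25A29 probe set was under the floor. SLC25A2 and SLC25A18, carriers of ornithine and of glutamate, were under the floor on both arrays.

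All 10 carriers of nucleotides, cofactors and glutathione named on the array were measured, and this role held both ends of the range. SLC25A51, which brings NAD into mitochondria, had 369 with siRNA-Tbet and 523 with siRNAc on its main probe set, 1.42-fold lower (log2 ratio -0.50, spread 0.33). Its second probe set had 335 with siRNA-Tbet and 287 with siRNAc, a log2 ratio of 0.22, so the 2 readings of this gene disagree in direction. SLC25A26, the importer of the methyl donor S-adenosylmethionine, had 1569 with siRNA-Tbet and 1303 with siRNAc on its only probe set, 1.204-fold higher. SLC25A17, a peroxisomal member of the family that carries coenzyme A, FAD and NAD, had 2940 with siRNA-Tbet and 3613 with siRNAc on its main probe set and 532 with siRNA-Tbet and 633 with siRNAc on its second. Both SLC25A17 readings were lower with siRNA-Tbet (log2 ratios -0.30 and -0.25), which made it the largest difference among the carriers whose measured probe sets all lay below 0 and numbered at least 2.

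SLC25A32, a carrier of folate and FAD, had 17626 with siRNA-Tbet and 20339 with siRNAc on its only probe set, a log2 ratio of -0.21. It lay at percentile 2.92 among the 1216 genes of its signal decile, whose median was 0.04, and its ratio exceeded the spread of 0.12. The pyrimidine nucleotide carrier SLC25A33 had 5234 with siRNA-Tbet and 5181 with siRNAc. Its paralog SLC25A36 had 4689 with siRNA-Tbet and 4984 with siRNAc on its main probe set, and log2 ratios of 0.21 (3110 with siRNA-Tbet and 2688 with siRNAc), -0.02 (2128 with siRNA-Tbet and 2160 with siRNAc) and 0.28 (179 with siRNA-Tbet and 147 with siRNAc) on its other measured ones. SLC25A39, which imports glutathione, had 5971 with siRNA-Tbet and 5760 with siRNAc, and its close relative SLC25A40 had 6209 with siRNA-Tbet and 6613 with siRNAc on its main probe set and 2173 with siRNA-Tbet and 2026 with siRNAc on its other. SLC25A42, a coenzyme A carrier, had 236 with siRNA-Tbet and 229 with siRNAc, and its 3 other probe sets were under the floor. SLC25A16, named for its discovery as an autoantigen in Graves disease, had 977 with siRNA-Tbet and 995 with siRNAc on its main probe set, 1142 with siRNA-Tbet and 1195 with siRNAc on a probe set that can cross-hybridise, and 765 with siRNA-Tbet and 768 with siRNAc, and 325 with siRNA-Tbet and 302 with siRNAc, on the other pair. The 4 readings of SLC25A16 all lay within 1.2-fold.

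The mitoferrins import iron for haem and iron-sulphur clusters, SLC25A37 mainly in erythroid cells and SLC25A28 more widely. SLC25A28 had 1291 with siRNA-Tbet and 1365 with siRNAc on its main probe set and 1212 with siRNA-Tbet and 1402 with siRNAc on its second, both lower with siRNA-Tbet (log2 ratios -0.08 and -0.21), and its last probe set was under the floor. SLC25A37 is the most heavily covered carrier on the array, with 10 probe sets, of which 9 were measured. Its main probe set had 1400 with siRNA-Tbet and 1622 with siRNAc, a log2 ratio of -0.21. Those next in brightness had 919, 823, 693, 592, 472 and 341 in siRNA-Tbet cells and, in the same order, 737, 735, 648, 511, 430 and 265 in siRNAc cells, all higher with siRNA-Tbet (log2 ratios between 0.10 and 0.37). The dimmest measured ones had 207 with siRNA-Tbet and 141 with siRNAc, a lower bound of 1.41-fold higher because the siRNAc value is under the floor, and 119 with siRNA-Tbet and 149 with siRNAc, where the siRNA-Tbet value is under it. Thus 7 of 9 readings of SLC25A37 went against the direction of its brightest one.

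The relatives of the uncoupling proteins were SLC25A14 and SLC25A30, while the brain carrier SLC25A27 was under the floor at all 5 of its probe sets. SLC25A14 had 874 with siRNA-Tbet and 1035 with siRNAc on its main probe set and 529 with siRNA-Tbet and 402 with siRNAc on its second, log2 ratios of -0.24 and 0.40. SLC25A30 had 2637 with siRNA-Tbet and 2738 with siRNAc on its main probe set (log2 ratio -0.05). On its second, at signals of 252 with siRNA-Tbet and 162 with siRNAc, it was 1.56-fold higher with siRNA-Tbet. That was the 1 carrier probe set of 69 measured that reached 1.5-fold, with 0 at 1.5-fold lower, against 2.87% higher and 3.23% lower among all 23471 measured probe sets. Another SLC25A30 probe set had 153 with siRNA-Tbet and 59.5 with siRNAc, the siRNAc value being under the floor, and the last was under it on both arrays.

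SLC25A46, an outer membrane protein that acts in mitochondrial fission and lipid transfer, had 2692 with siRNA-Tbet and 2679 with siRNAc on its main probe set and 1403 with siRNA-Tbet and 1175 with siRNAc on its second. The remaining measured carriers are family members whose substrates are little known. SLC25A43 had 1102 with siRNA-Tbet and 1238 with siRNAc (log2 ratio -0.17). SLC25A45 had 518 with siRNA-Tbet and 509 with siRNAc on its main probe set and 179 with siRNA-Tbet and 159 with siRNAc on its other. SLC25A34 had 170 with siRNA-Tbet and 161 with siRNAc, and SLC25A35 had 146.1 with siRNA-Tbet and 151.4 with siRNAc, the first of these under the floor by a small margin. All 4 stayed within 1.2-fold at these main probe sets.

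**Figure D3:**
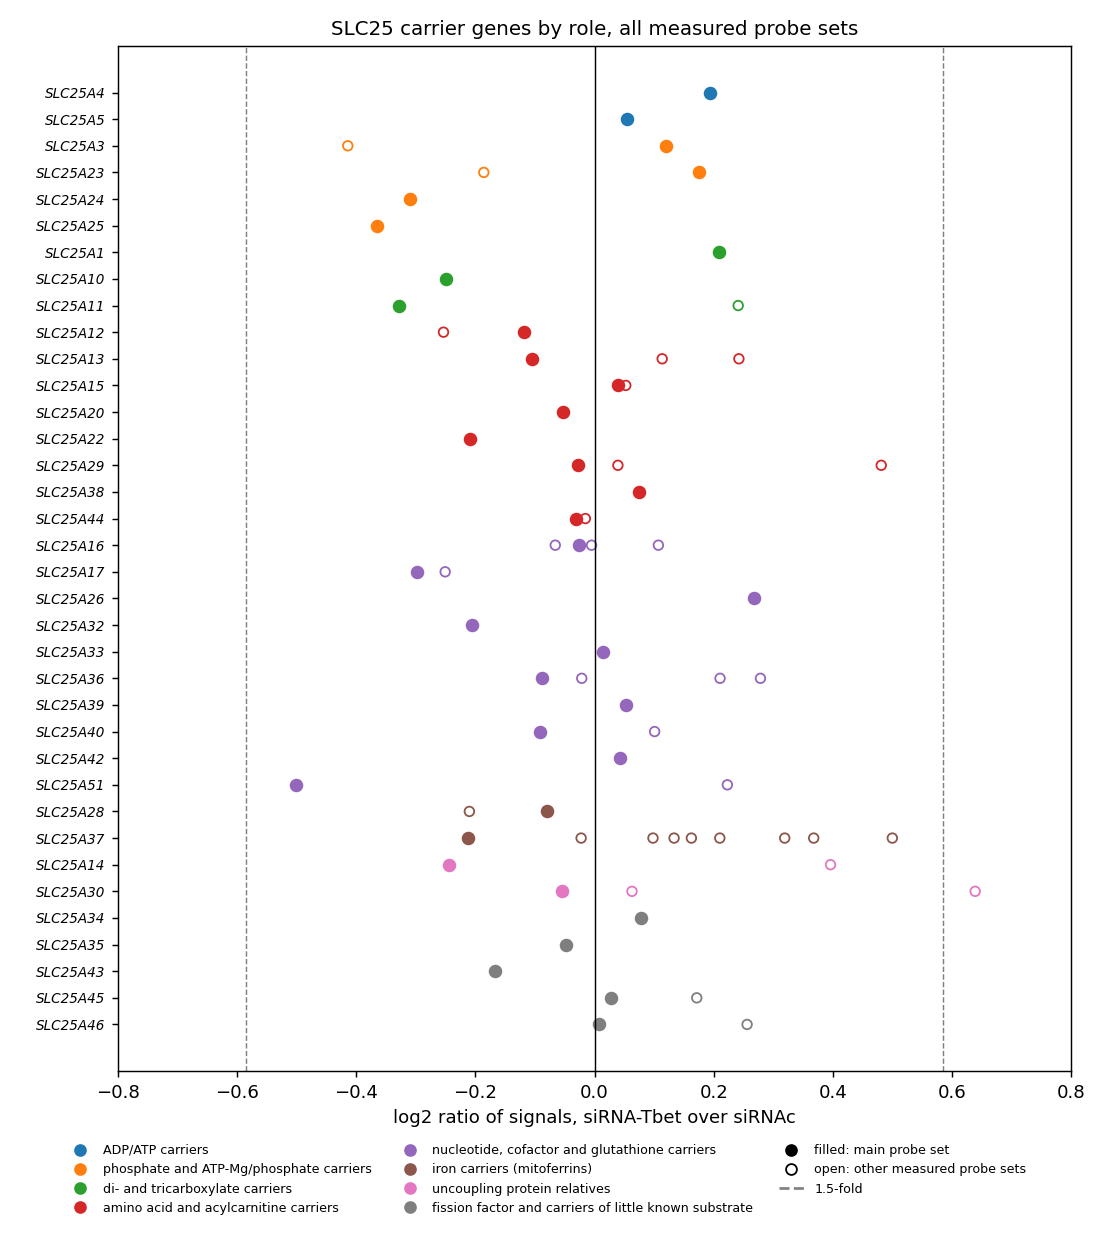
Log2 ratio of signals (siRNA-Tbet over siRNAc) for the 36 measured SLC25 carriers, grouped and coloured by role. Filled points are the main probe set of each gene, open points its other measured probe sets, and dashed lines mark 1.5-fold; 1 open point, of SLC25A30, lies beyond a dashed line, and the 9 points of SLC25A37 spread from -0.21 to 0.50.

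Of the 19 carriers with at least 2 measured probe sets, 12 had readings on both sides of 0. All readings lay above 0 in 3 (SLC25A15, SLC25A45 and SLC25A46) and below 0 in 4 (SLC25A12, SLC25A17, SLC25A28 and SLC25A44). That makes 7 of 19 on 1 side, near the 41.4% of all 6140 genes with 2 or more measured probe sets (19.4% all above and 22% all below). The other 17 measured carriers have 1 measured reading each, SLC25A32 and SLC25A26 among them, so their direction has no second reading on these arrays.

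**Figure D4:**
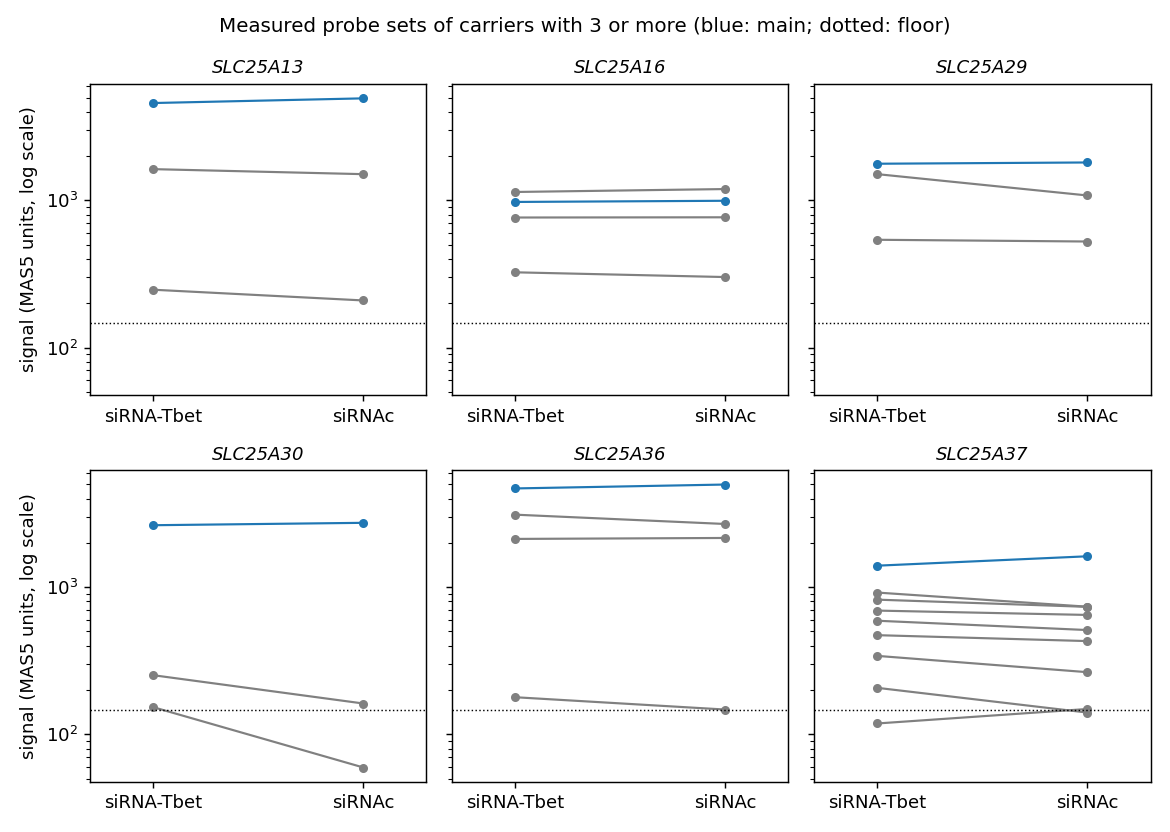
Signals in MAS5 units (log scale) of every measured probe set of the 6 carriers with 3 or more, with siRNA-Tbet on the left and siRNAc on the right of each panel. Blue lines are the main probe sets, grey lines the others, and the dotted line is the floor of 146.396; the blue and most grey lines of SLC25A37 slope in opposite directions, and the 4 lines of SLC25A16 are nearly flat.

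The 9 carriers that were not measured are SLC25A2, SLC25A18, SLC25A21, SLC25A27, SLC25A31, SLC25A41, SLC25A47, SLC25A48 and SLC25A53. Several of these are known for narrow expression, such as SLC25A31 in testis, SLC25A27 in brain and SLC25A47 in liver. Their 15 probe sets had signals from 2.05 to 97.5 with siRNA-Tbet and from 0.739 to 113 with siRNAc, all under the floor, where no difference could be read. In all, 27 of the 96 carrier probe sets were under the floor on both arrays. SLC25A6 and SLC25A52, which RefSeq also lists as carriers, were not analysed here, as the annotation used gives no probe set their name.

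Of the 5 members that are not carriers, 3 were measured. SLC25A25-AS1, an antisense RNA at the SLC25A25 locus, had 679 with siRNA-Tbet and 521 with siRNAc (log2 ratio 0.38), where SLC25A25 itself had -0.37. SLC25A5-AS1 had 207 with siRNA-Tbet and 112 with siRNAc, at least 1.41-fold higher because the siRNAc value is under the floor, and its second probe set was under the floor on both arrays. SLC25A48-AS1 had 122 with siRNA-Tbet and 179 with siRNAc, the siRNA-Tbet value being under the floor, so it was at least 1.22-fold lower. SLC25A21-AS1 (9.87 with siRNA-Tbet and 15.9 with siRNAc) and the pseudogene SLC25A3P1 (60.0 with siRNA-Tbet and 49.1 with siRNAc) were under the floor on both arrays.

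Because T-bet binds DNA, the 250 bases before the start of each gene in RefSeq (GRCh38.p14) were searched on both strands for the T-box motif AGGTGTGA that T-bet and its relatives recognise. Windows were found for 38 of the 45 carriers, 31 of them measured, 48 windows in all since some genes have several starts. The full T-box motif was in 0 of these 48 windows, and in 0.786% of all 35116 windows. The shorter form GGTGTGA, which is contained in the full one, was in 1 of 48, upstream of SLC25A36, and in 2.76% of all windows. The ETS motif CCGGAAGT, the kind bound by the mitochondrial gene regulator GABPA, was in 4 carrier windows (SLC25A17, SLC25A24, SLC25A26 and SLC25A46) and in 3.42% of all windows. The palindromic NRF1 motif was in 3 (SLC25A3, SLC25A11 and SLC25A31) and in 5.07% of all windows. These matches describe the letters only, and no binding was measured. The windows printed here are those of SLC25A51, the carrier with the lowest ratio at its main probe set, SLC25A17, lower at both of its probe sets, and SLC25A36, the one with the short T-box form. Capitals mark the ETS match in SLC25A17 and the T-box match, read on the opposite strand, in SLC25A36.
SLC25A51 (chr9:37904128-37904377, minus strand): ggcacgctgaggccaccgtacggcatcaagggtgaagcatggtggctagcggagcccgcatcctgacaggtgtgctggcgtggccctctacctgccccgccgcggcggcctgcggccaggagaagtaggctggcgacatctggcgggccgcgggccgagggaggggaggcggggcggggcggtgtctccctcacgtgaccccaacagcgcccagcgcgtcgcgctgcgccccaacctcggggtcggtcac
SLC25A17 (chr22:40819347-40819596, minus strand): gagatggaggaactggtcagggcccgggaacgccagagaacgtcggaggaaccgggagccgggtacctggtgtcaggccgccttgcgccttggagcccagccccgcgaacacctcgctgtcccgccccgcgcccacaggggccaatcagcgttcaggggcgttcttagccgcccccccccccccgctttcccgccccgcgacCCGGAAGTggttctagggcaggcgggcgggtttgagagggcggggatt
SLC25A36 (chr3:140941586-140941835, plus strand): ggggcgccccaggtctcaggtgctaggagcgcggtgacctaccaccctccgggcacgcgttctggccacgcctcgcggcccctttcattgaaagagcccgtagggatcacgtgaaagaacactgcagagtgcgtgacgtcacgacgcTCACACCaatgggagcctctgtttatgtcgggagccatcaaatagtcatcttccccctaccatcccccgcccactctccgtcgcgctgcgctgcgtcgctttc

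Other genes of mitochondrial transport and import were set beside the carriers from lists of known components. Each gene of these lists was read at its main probe set only, so agreement with its other probe sets was not tested. In the import route that inserts carriers, all 13 genes were measured, 8 were above 0 and 5 below, and 0 reached 1.5-fold, with a median log2 ratio of 0.03. TOMM22, a receptor of the TOM complex, had the largest ratio, with 9965 in siRNA-Tbet cells and 6950 in siRNAc cells (1.43-fold higher), followed by TIMM22, the pore that inserts carriers, at 1.16-fold higher. TIMM29, a subunit of the TIM22 complex, and TIMM8A, a small chaperone, had the lowest log2 ratios (-0.27 and -0.25). Of 16 measured other inner membrane transporters, 4 were above 0 and 12 below, with a median of -0.07 and 0 at 1.5-fold. The calcium uniporter pore MCU was 1.25-fold lower (1142 with siRNA-Tbet and 1422 with siRNAc) and ABCB8 was 1.24-fold lower, while ABCB10 and MCUB were 1.09-fold and 1.08-fold higher.

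Of the SLC25 family proteins that go by other names, 4 were measured, and all 4 were on the lower side at their main probe sets. Among all measured genes, 46.5% lay above 0. Other probe sets of these 4 genes were not read here. MTCH1 had 13713 with siRNA-Tbet and 19202 with siRNAc, 1.40-fold lower, and MTCH2, an insertase of the outer membrane, had 14362 with siRNA-Tbet and 17311 with siRNAc, or 1.21-fold lower. UCP2, the uncoupling protein of blood and immune cells, had 11037 with siRNA-Tbet and 11983 with siRNAc, and UCP3 had 101 with siRNA-Tbet and 157 with siRNAc, the siRNA-Tbet value being under the floor. UCP1, the uncoupling protein of brown fat, was under the floor on both arrays. The 4 outer membrane pores and receptors VDAC1, VDAC2, VDAC3 and TSPO had log2 ratios from -0.01 to 0.18, with TSPO (1.13-fold) and VDAC3 (1.11-fold) the highest and VDAC2 the lowest. Of 10 measured regulators of mitochondrial gene expression, 4 were above 0 and 6 below, with a median of -0.02, and the lowest were ESRRA and TFB2M (log2 ratios -0.24 and -0.06) and the highest GABPB1 and TFAM (both 0.10). None of the measured genes of these lists reached 1.5-fold in either direction at its main probe set.

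**Figure D5:**
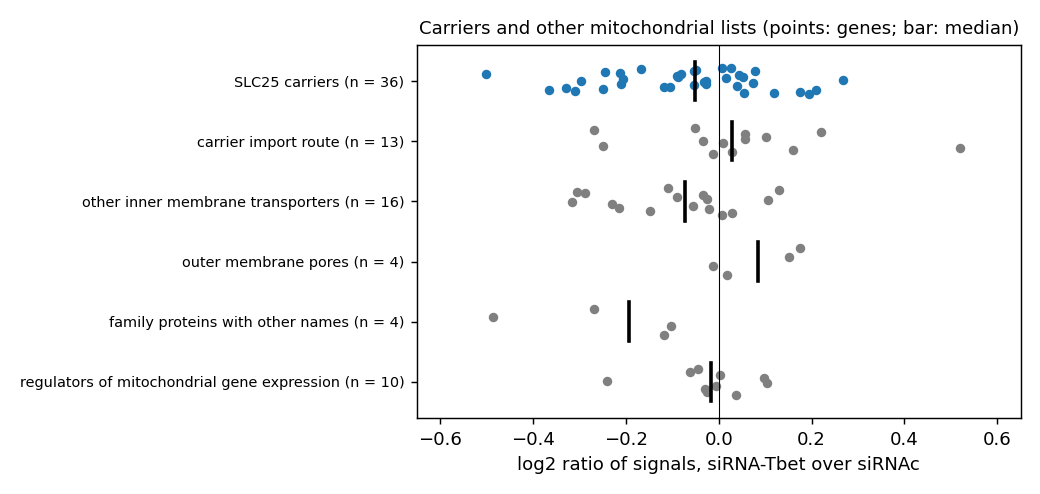
Log2 ratios (siRNA-Tbet over siRNAc) of the main probe sets of measured genes in each list, with 1 point per gene and a black bar at the median. The 36 SLC25 carriers have a median of -0.05; the medians of the other lists run from -0.19 (family proteins with other names) to 0.09 (outer membrane pores), and TOMM22 is the highest point.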

How the data were processed

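Gene expression was read on 2 Affymetrix arrays, 1 per group. The values deposited for each probe set are intensities on a linear scale, made by the authors with MAS5, per the submitters' processing notes, which name no version. Both arrays had a mean of 1000 after trimming 2% at each end, so they share a global scale. MAS5 subtracts mismatch signal, so low intensities are noisy, and the brightest can be compressed.

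Gene names come from the platform's annotation, which gave 41091 probe sets a single gene. The 1801 with several genes were dropped, and 11783 are unnamed here or are among the 62 controls. Updating symbols through Entrez numbers changed 0 members. Values were used as deposited. Signals under 146.396, the higher of the 2 array medians over non-control probe sets, were raised to it on both arrays before taking log2 ratios, and a fold against a raised value is given as at least that size. One floor for both arrays replaces separate floors, which can turn a sign. A gene's main probe set was the one of highest mean log2 signal, with the suffix _x_at passed over where another existed. The named-gene rule covered every member, with all probe sets given for carriers past 1.5-fold, with 3 or more measured probe sets, the 5 brightest and the ADP/ATP carriers; second readings of other carriers were added after their values were seen. Other lists name the genes with the largest ratios. The members and lists were chosen with earlier results of these data known. No test was possible with 1 array per group, whose number limits the precision. The procedure was tested on simulated data, with 2-fold changes planted only in genes whose signals lay well above the floor. The simulated noise was smaller than the probe set spread seen here, so that test does not cover dim genes or smaller differences. Analyses used Python 3.11.15, pandas 2.3.3, numpy 2.4.6 and statsmodels 0.14.6.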

Additional observations from a re-analysis of the deposited data

How the results depend on the processing

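The count of 0 measured carriers past 1.5-fold in either direction was the same under scaling by array medians, quantile normalization and subtraction of a lowess curve (span 0.3). It was also the same with floors at the 25th and 75th percentile or at each array's own median, the median over probe sets and plain probe sets only. Of all genes, 4.1% to 5.65% passed 1.5-fold in either direction under these settings, other than 21.4% and 0.915% at the 25th and 75th percentile floors. Outside the 25th percentile floor, so few genes passed that a count of 0 among the carriers is near the share of all genes. The 25th percentile floor took in 17321 genes in place of 12155, but 41 carriers in place of 36. Its 21.4% therefore includes many added dim genes, and the comparison with 0 of 41 carriers was not matched for signal. A size of 2-fold and updated symbols, which changed 0 members, could not alter a count of 0. Without a floor or filter, 2 carriers were higher (SLC25A21 and SLC25A27) and 4 lower (SLC25A18, SLC25A31, SLC25A41 and SLC25A53), all of them under the floor on both arrays, where 29.4% of all genes also passed 1.5-fold. With the second-brightest measured probe set 1 carrier of 19 was higher, SLC25A30, where 3.39% of all genes were. The median log2 ratio of -0.05 became -0.030 with array medians, 0.0098 with the median over probe sets and 0.11 with second probe sets, so its sign rests on the probe set chosen; the cause was not tested. Over the measured member probe sets, the count at 1.5-fold higher, 1 as reported, was 5 with a floor at the 25th percentile (11.3% of all probe sets), 0 at the 75th (0.519%), 11 without a floor (16.2%) and 0 at 2-fold (0.324%). The count at 1.5-fold lower, 0 as reported, was 2 at the 25th percentile (11.1% of all probe sets) and 11 without a floor (16.4%). Of 299 single-carrier ratios recomputed under other settings, 19 in 12 carriers moved by more than the probe set spread. The sign changed in 20 of 55 values in 11 carriers with another choice of probe set, SLC25A51 and SLC25A11 among them, and in 2 of 244 with another scaling or floor, both of SLC25A5, whose reported ratio was 0.05. No paired analysis was possible because each group is 1 array and the labels give no replicate numbers. Leaving out an array was likewise not possible. Signals under the floor limit what can be read of the 9 carriers that were not measured.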
